A study of Caenorhabditis elegans with 9 samples.

Results

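The arrays compared were 3 labelled *let-418(RNAi)* and 3 labelled *gfp(RNAi)*, 6 of the 9 arrays of the series, each array read as a whole across 22548 probe sets. Membership came from the sample labels, which give every array a treatment and a batch, and batches 1 to 3 each hold 1 array of each kind, which the methods call biological replicates. All groups shared the same animals and handling. They were wild-type *C. elegans* of the N2 Bristol strain, placed as synchronized L4 larvae on HT115 bacteria making double-stranded RNA at 25°C. When these worms were gravid their embryos were freed by bleaching and hatched without food, and the L1 larvae were then fed the same bacteria for 3 h at 25°C, washed and pelleted. The bacteria of the treated group carried a stretch of *let-418* cDNA and those of the control group carried *gfp*, which is not a worm gene, so the controls had also eaten double-stranded RNA. A pellet is a pool of many whole larvae, and the feeding reaches mother and larva without a tissue-restricted promoter. The remaining 3 arrays, labelled *mep-1(RNAi)*, entered the shared estimate of the spread and 1 direct contrast.

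LET-418 is a Mi-2-type ATPase that remodels nucleosomes. It works with histone deacetylases in the NuRD complex and with the zinc-finger protein MEP-1 in the MEC complex, and in worms it is known for keeping germline genes silent in somatic tissue. A newly fed L1 larva consists almost wholly of somatic cells (intestine, hypodermis, muscle, pharynx and neurons) and carries a single pair of primordial germ cells, so germline transcripts start from a low level at this stage.

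Each value below is a scaled signal, that is the deposited probe set signal multiplied so that all arrays had an equal 2% trimmed mean, and each fold change is the difference of mean log2 signals, treated minus control. A probe set was called when limma's moderated test on all 9 arrays gave a Benjamini-Hochberg adjusted p under 0.05 and the change was at least 2-fold. Deposited trimmed means ran from 273 to 436 over the 6 arrays, the 2 extremes both in the treated group, and the multipliers from 0.743 to 1.19. The file holds no detection calls, so the dimmest signals have no stated floor. Where a gene had several probe sets, the brightest on average that named that gene alone stood for it, which left 17118 genes.

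The targeted gene did not read lower. *let-418* signal was 815, 1012 and 917 in the control arrays and 1595, 1479 and 2276 in the treated arrays, so that every treated array lay above every control array. The log2 fold change was 0.94 ± 0.18 (SE, n = 3 per group, limma, adjusted p = 0.0043). That is the opposite direction to a lowered transcript. The position of the probes relative to the cDNA stretch in the bacteria could not be taken from the labels, the methods or the files, so this reading is no measure of the knockdown, and the treated arrays are named by their label in what follows. Of the 12 MEC and NuRD subunits listed, 11 were measured, and no other passed the adjusted p upward. *mep-1* itself gave 1555, 1529 and 1407 against 1523, 1700 and 1528, a difference of 0.08 with a 95% interval from -0.18 to 0.34. *hda-1*, the class I deacetylase of these complexes, gave -0.14 (interval -0.48 to 0.20) and *chd-3*, the second Mi-2 gene of the worm, -0.08 (interval -0.41 to 0.25). *dcp-66* had an adjusted p of 0.028 at a log2 change of -0.56, and it lost that side of the threshold when control replicate 2 (adjusted p = 0.102), control replicate 3 (0.0585) or treated replicate 3 (0.0917) was left out. None of 13 measured genes of the DREAM complex and the related synMuv B group passed limma's adjusted p (2 had an unadjusted p under 0.05, both lower, the methods' t-test after adjustment gave 0, and 3 passed downward with median centring and 1 with quantile normalization), with *lin-35*, the worm Rb protein, at -0.45 (interval -0.77 to -0.13).

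Across all probe sets, 1475 (6.54%) were called higher and 621 (2.75%) lower in the arrays labelled *let-418(RNAi)*. Without the fold limit the counts were 2180 (9.67%) and 1296 (5.75%). Counted as genes by 1 probe set each, 1215 (7.1%) were higher and 496 (2.9%) lower, and these shares are the background for the gene groups described below. Of the called probe sets 70.37% were higher. That split depended on how arrays were put on 1 scale, since centring each array on its median log2 signal gave 1225 higher and 988 lower, or 55.35% higher, and moved the median difference over all probe sets from -0.0286 to -0.204 on the log2 scale. Every called probe set differed in the same direction within each of the 3 batches, beside 49.13% of all probe sets. The call rests on these same arrays, so this agreement and the lack of overlap given next largely come with the call. The 3 treated and 3 control values did not overlap for 1470 of the 1475 higher and 620 of the 621 lower probe sets, beside 33.8% of all probe sets. Of 2981 genes with several probe sets, 154 were called by some of them only and 0 were called in opposite directions.

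Most of the called changes were of middle size. Among the rises 833 probe sets (56.47%) lay between 2- and 4-fold, 365 between 4- and 8-fold, 147 between 8- and 16-fold and 130 above 16-fold. Falls were smaller, with 435 (70.05%) between 2- and 4-fold, 139 between 4- and 8-fold, 38 between 8- and 16-fold and 9 above that. The median fold was 3.598 for rises and 2.791 for falls. A further 578 rises and 539 falls passed the adjusted p at 1.5- to 2-fold, where genes were brighter, with median control signals of 246.8 and 627.4. The sizes of the largest rises rest on dim controls. Adding an offset of 21.1 (the scaled signal at the 25th percentile) before the log left 38 rises above 16-fold in place of 130, while 1121 were still called higher and 421 lower.

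**Figure D1:**
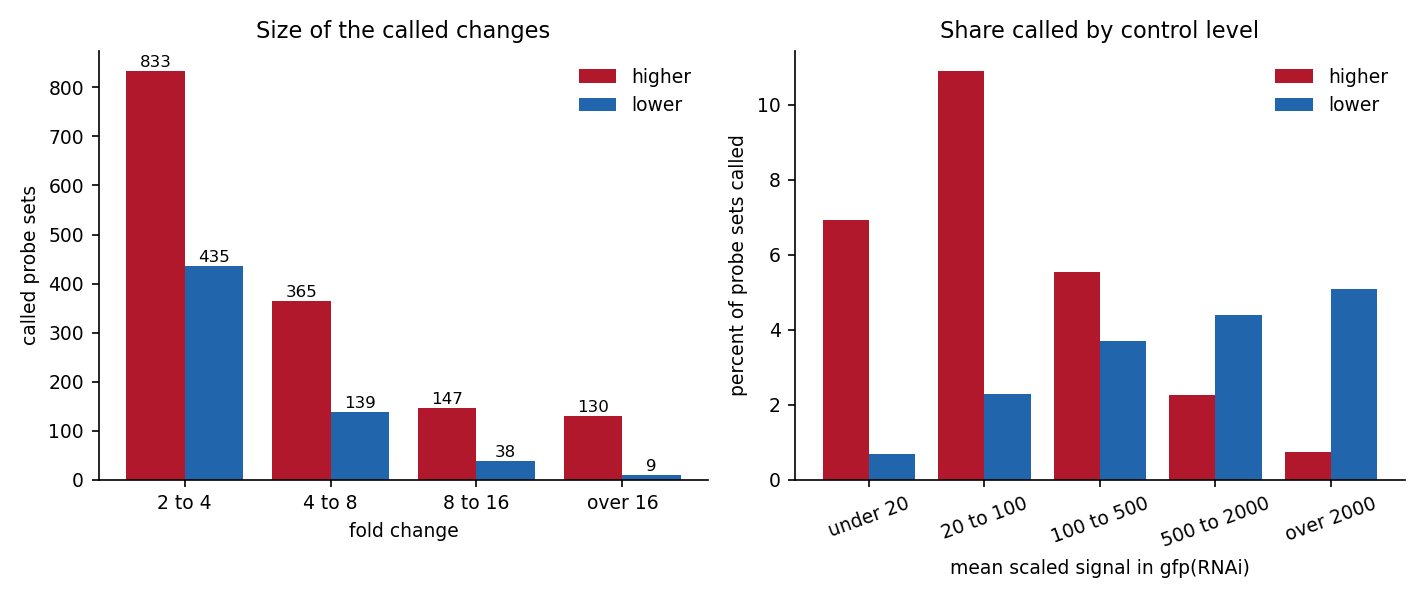
Left, number of called probe sets in each class of fold change; right, percent of probe sets called, by mean scaled signal in the 3 *gfp(RNAi)* arrays. Red bars are higher and blue bars lower in the arrays labelled *let-418(RNAi)*; between 2- and 4-fold stand 833 rises and 435 falls, and the share called lower goes from 0.678% in the dimmest class to 5.08% in the brightest.

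Rises and falls came from different parts of the signal range. A typical rising probe set went from a median control signal of 50.4 to 203.9, and a typical falling one from 272.1 to 83.13. Among 5788 probe sets with a control mean of 20 to 100, 10.9% were called higher and 2.28% lower. Among the 1082 with a control mean above 2000 the order was reversed, with 0.739% higher and 5.08% lower. The control values enter both the level and the difference here, so part of such a slope comes with the way the classes were formed. Probe sets with a control mean of at least 1000 counted 29 rises and 128 falls.

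**Figure D2:**
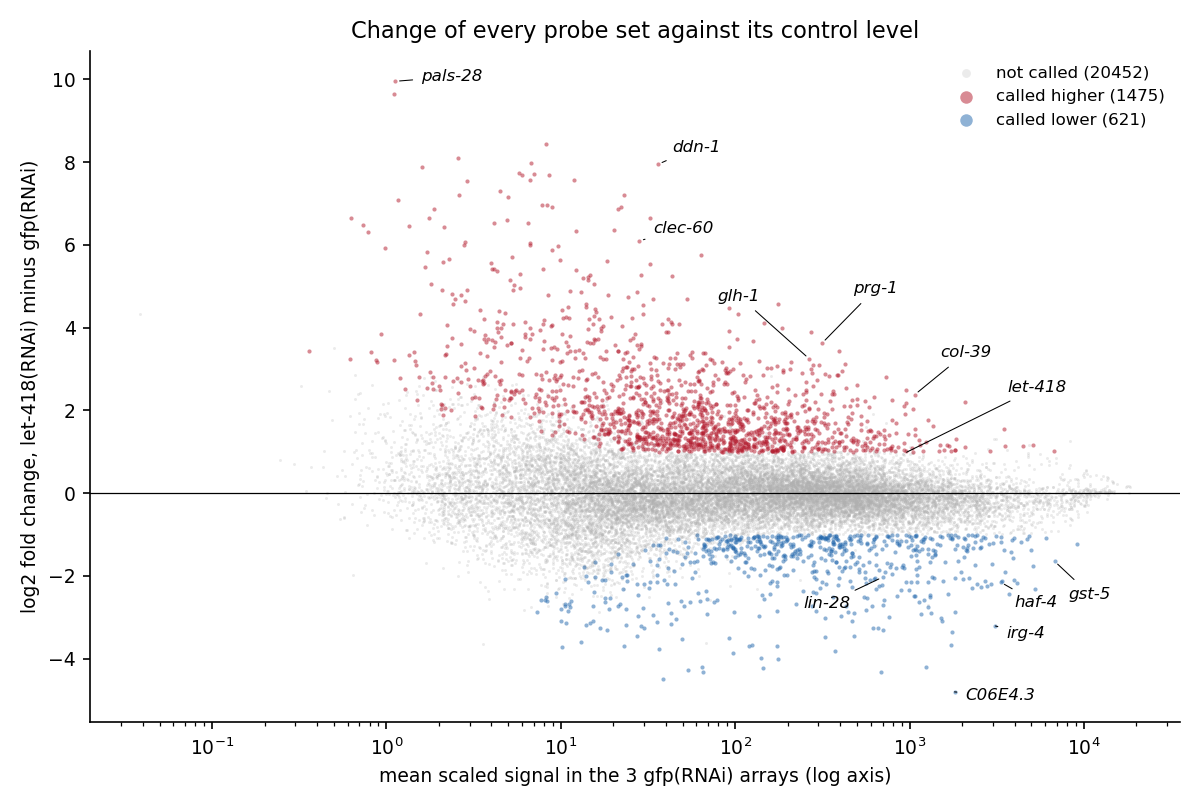
Each point is 1 of 22548 probe sets, with its mean scaled signal in the 3 *gfp(RNAi)* arrays on a log axis and its log2 fold change (arrays labelled *let-418(RNAi)* minus *gfp(RNAi)*) on the other. The 1475 called higher (red) reach furthest at dim controls and the 621 called lower (blue) extend to the brightest genes.

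Many germline genes were called higher. In 6 lists of germline function (P granules, meiotic chromosome structure, meiotic recombination, oocyte and eggshell, small RNA pathways, germline chromatin) 107 genes were measured, of which 47 (43.9%) were called higher and 0 lower by limma, with a median log2 change of 0.8777 where all genes had -0.0285. The other 60 were not called, and for germline chromatin the count was 2 of 11 with a median of -0.01548. At an unadjusted p under 0.05 the lower count was 4, and the methods' t-test after adjustment gave 0. Among them were proteins of the P granule, the RNA-protein body that marks germ cells. *glh-1*, a Vasa-type RNA helicase, read 250, 257 and 290 in the control arrays and 2043, 2500 and 3121 in the treated ones, without overlap, a log2 change of 3.25 ± 0.16 (adjusted p = 2.1e-07). *pgl-1*, a scaffold protein of the granule, went from 164, 184 and 153 to 480, 547 and 669 (1.75 ± 0.16, adjusted p = 2.4e-05). *deps-1*, needed for P granule assembly, went from 88.5, 90.2 and 85.3 to 554, 662 and 884 (2.97 ± 0.23). Every treated value of the 3 genes exceeded every control value. *gld-1*, a translational repressor of the germline, rose by 2.85 ± 0.22 from a control mean of 35.7. In all, 11 of 25 measured P granule genes were called higher. *cgh-1* and *car-1*, named as uncalled members of high control signal, gave 0.21 (interval -0.06 to 0.48) and 0.09 (interval -0.44 to 0.62).

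Small RNA genes of the germline divided. *prg-1*, the Piwi Argonaute, had the clearest change of that list, from 341, 310 and 296 to 3492, 4058 and 4145, a log2 change of 3.63 ± 0.14 (adjusted p = 5.9e-08). *wago-1* and *csr-1*, Argonautes that bind secondary small RNAs, rose by 2.64 ± 0.16 and 2.45 ± 0.19, and *mut-14*, a helicase of the Mutator focus, by 1.45 ± 0.20. Altogether 7 of 21 measured members were called higher (4 without scaling), and 7 had a negative difference. *rde-1* and *rde-4*, a double-stranded RNA binding protein, were named as uncalled members of high control signal. They gave 0.34 (interval -0.05 to 0.73) and -0.11 (interval -0.56 to 0.34).

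Meiotic genes were called higher in both of their lists. For chromosome axis, pairing and synapsis, 14 of 19 measured genes (73.7%) were called higher, all 19 had a positive difference, and the median was 1.328. That count became 9 with the offset and 8 without scaling. *rec-8*, the meiotic cohesin, read 95.9, 102 and 66.4 against 581, 689 and 691 (log2 2.91 ± 0.19, adjusted p = 1.8e-06). The HORMA-domain axis gene *him-3* read 71.8, 49.5 and 60.5 against 391, 406 and 454 (2.80 ± 0.17), and *syp-1*, of the synaptonemal complex, 27.1, 65.8 and 52.3 against 411, 442 and 340 (3.12 ± 0.28). None of these sets of values overlapped between groups. Of 17 genes for meiotic breaks and recombination 6 were called higher (3 with the offset or without scaling), among them *dsb-2*, which promotes break formation (3.05 ± 0.23, or 2.26 with the offset), and *msh-5*, a crossover factor (1.96 ± 0.18). *mre-11*, named as an uncalled member of high control signal, gave 0.29 (interval 0.00 to 0.57).

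Oocyte and eggshell genes were called higher for 10 of 19. *puf-7*, an RNA-binding protein of the Pumilio family, went from 154, 172 and 138 to 426, 506 and 453. *rme-2*, the yolk receptor of oocytes, rose by 1.56 ± 0.20 and *chs-1*, the chitin synthase of the eggshell, by 2.07 ± 0.27, both from dim controls (means 41.1 and 15.5), the latter by 1.23 with the offset. Single genes of other lists have a germline role as well. *ife-5*, a germline cap-binding protein, rose from 38.9, 46.7 and 43 to 754, 744 and 743, a log2 change of 4.13 ± 0.21. It was the only translation factor of 37 measured that was called higher. *asb-1*, a germline subunit of the mitochondrial ATP synthase, rose by 2.23 ± 0.14 and the germline anillin *ani-2* by 2.16 ± 0.18. *cyp-31A3*, a cytochrome P450 that makes eggshell lipid, rose by 2.64 ± 0.22, or 1.80 with the offset.

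Sperm genes gave almost no calls. Of 74 measured sperm genes 0 were called higher (1 at an unadjusted p under 0.05, 0 by the methods' t-test) and 1 lower (*spe-36*, from a control mean of 74.5 to 25.23), and the median was -0.000368 (-0.1758 when arrays were centred on their medians). Genes fixed as markers of the primordial germ cells were called higher in 7 of 9 cases. The exceptions were *nos-2* (-0.22, interval -0.95 to 0.51) and *mes-4* (-0.43, interval -0.83 to -0.03). Summed signals of the list were 1252 to 1352 in the control arrays and 7417 to 9573 in the treated ones. The list includes *pgl-1*, *glh-1*, *deps-1*, *prg-1* and *csr-1*, already counted in the germline lists above. Its count is thus not separate from those lists. Markers of gravid adults and embryos, which would show carried-over material, counted 3 of 20 (15.0%) called higher, beside 7.1% over all genes. The 3 were *cpg-2*, *cbd-1* and *chs-1*, all eggshell genes, and *chs-1* was also counted with the oocyte and eggshell genes above. Sums of these markers were 798 to 1073 in controls and 1308 to 1555 in treated arrays. Their part in the germline rise was not tested. In pooled whole larvae more cells of a type, more RNA per cell and RNA in other cell types cannot be told apart.

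**Figure D3:**
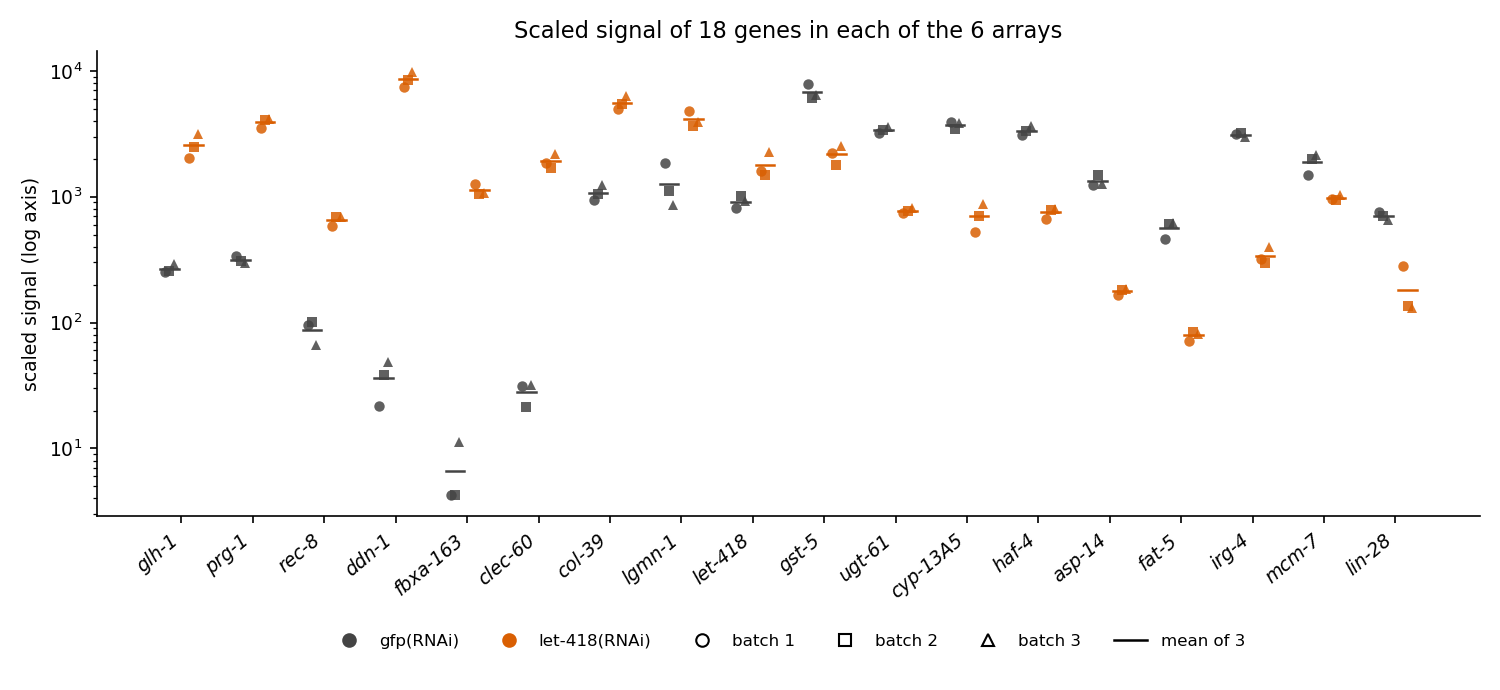
Scaled signal on a log axis of 18 genes in each array, grey for *gfp(RNAi)* and orange for the arrays labelled *let-418(RNAi)*; marker shape gives the batch and the short line the mean of 3 arrays. In all 18 genes the groups are apart; *ddn-1* goes from a control mean of 36.2 to 8548 and *gst-5* from 6789 to 2175.

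Many of the largest rises were in the group of genes known in worms as the intracellular pathogen response, which are turned on by microsporidia and viruses and include the *pals* family and parts of a Cullin-RING ubiquitin ligase. Of 34 listed genes 30 were measured, and 27 (90.0%) were called higher with a median log2 change of 4.942 (3.793 with the offset). The list's sum over members went from between 3095 and 3245 in the control arrays to between 34404 and 36787 in the treated ones. *eol-1* read 29.7, 32.5 and 35.7 and then 3469, 3102 and 3170, a log2 change of 6.64 ± 0.12 (adjusted p = 1.4e-10). *pals-6* read 23.4, 29.7 and 15.5 and 3220, 3311 and 3304. *ddn-1* went from 21.9, 38.1 and 48.6 to 7422, 8416 and 9805. The ranges of the groups lie more than 1 order of magnitude apart for these 3 genes. *pals-28* had the largest fold, with controls of 1.14, 1.3 and 0.935 and treated values of 1038, 1015 and 1285, and since controls this dim lie under the 25th percentile signal its log2 change of 9.95 became 5.66 with the offset. *pals-25*, a regulator of this response, gave 0.44 (interval -0.04 to 0.92).

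Substrate-binding proteins of ubiquitin ligases had calls beyond that list. Of 310 measured F-box genes 64 (20.6%) were called higher and 4 lower, and of 85 MATH and BATH domain genes 30 (35.3%) were called higher and 1 lower. The small downward counts moved with single arrays, the F-box one to 2 without control replicate 2 or 3 and the other to 2 without control replicate 2. Both families are large and mostly dim, with median control signals of 16.71 and 14.75, and the F-box median of 0.1708 changed sign to -0.004678 when arrays were centred on their medians. *fbxa-163* read 4.29, 4.26 and 11.3 against 1258, 1048 and 1073, and *fbxa-165* 23.1, 23.6 and 8.62 against 835, 794 and 846 (log2 5.62 ± 0.35, or 4.44 with the offset). *math-39* read 22.5, 23.9 and 35.7 against 381, 301 and 282 (3.57 ± 0.27) and *math-5* 3.11, 4.7 and 4.09 against 208, 179 and 169. The members named next were chosen as not called and highest in control signal, so small differences largely come with that choice. *bath-42* gave 0.27 (interval 0.02 to 0.52), *math-33* -0.11 (interval -0.47 to 0.25) and *fbxa-150* 0.31 (interval -0.15 to 0.78).

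Several of the largest rises fell outside any list. *F49H6.5* read 1.01, 1.62 and 0.67 in controls and 890, 797 and 806 in treated arrays, *F57G4.11* 15.3, 1.07 and 8.45 and 1740, 1729 and 1902, and *C53A5.9* 9.96, 10.9 and 4.68 and 1648, 1548 and 1745. *B0507.8* and *F07E5.9* reached means of 2062 and 1113 from 11.8 and 6.01. The control values of all 5 lay under the 25th percentile signal. Genes known by a sequence name alone made up 6718 of the 17118 genes, 45.2% of the genes called higher and 35.3% of those called lower. Their shares called were 8.17% higher and 2.6% lower.

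**Figure D4:**
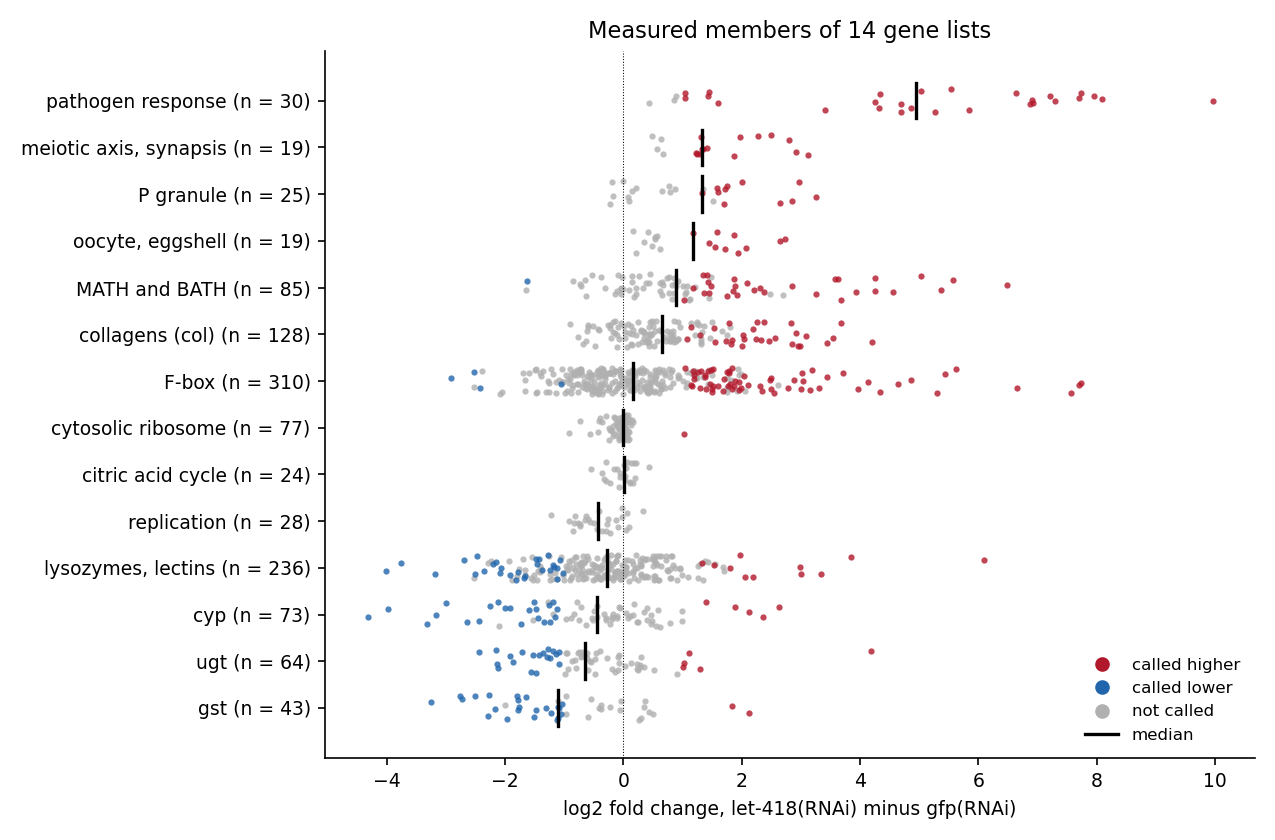
Log2 fold change (arrays labelled *let-418(RNAi)* minus *gfp(RNAi)*) of each measured member of 14 gene lists, red for called higher, blue for called lower and grey for not called, with the median as a black line and the number of members in brackets. Medians run from 4.942 for the pathogen response to -1.105 for the glutathione transferases, and those of ribosomal and citric acid cycle genes lie close to 0.

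Many detoxification genes were called lower. Worms modify foreign compounds with cytochromes P450 (*cyp*) and then couple them to glutathione or sugars through glutathione S-transferases (*gst*) and UDP-glucuronosyltransferases (*ugt*), for the most part in the intestine. Of 180 measured genes of the 3 families 64 (35.6%) were called lower and 12 (6.67%) higher and the rest were not called. The lower ones are 12.9% of all genes called lower. The *gst* family was lowest as a whole, with 23 of 43 (53.5%) called lower, 2 higher and a median of -1.105. *gst-5* read 7861, 6113 and 6393 in controls and 2224, 1794 and 2506 in treated arrays, a log2 change of -1.65 ± 0.16 (adjusted p = 3.6e-05). *gst-7* went from 5600, 4413 and 5217 to 1463, 1294 and 1767 (-1.76 ± 0.15). *gst-4*, widely used as a reporter of oxidative stress, went from 1127, 1191 and 1627 to 243, 221 and 222 (-2.51 ± 0.18, adjusted p = 3e-06). In each case the highest treated value lay under the lowest control value, and neither control nor treated values were dim. *gst-33* fell the most, by 3.25 on the log2 scale. *gst-36* gave -0.22 (interval -0.51 to 0.07), so the family was not uniform.

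The other conjugating and oxidising families split more. Of 64 *ugt* genes 19 were called lower and 5 higher, with a median of -0.6460. The 5 became 2 with median centring, quantile normalization or the offset and 1 without scaling. *ugt-61* went from 3200, 3415 and 3560 to 745, 773 and 806 (-2.13 ± 0.21, adjusted p = 3.5e-05) and *ugt-62* from 3770, 3551 and 4112 to 1417, 1396 and 1427. *ugt-13* gave -0.07 (interval -0.36 to 0.23), and *ugt-43* rose from 4.19, 8.77 and 11.2 to 154, 133 and 120. Of 73 *cyp* genes 22 were called lower and 5 higher, with a median of -0.4461. *cyp-13A5* went from 3887, 3437 and 3849 to 526, 708 and 877 (-2.43 ± 0.21, adjusted p = 1.2e-05). *cyp-35A4* went from 805, 703 and 785 to 110, 80.9 and 100 (-2.99 ± 0.17) and *cyp-33D3* from 483, 517 and 1049 to 30.3, 44.7 and 24.3 (-4.32 ± 0.34). *cyp-33C8* stayed within -0.67 to 0.01. Short-chain dehydrogenases were mostly outside this fall, with 1 of 30 called lower (*dhs-14*, -2.53 ± 0.22), or 2 without control replicate 1 or 3 or treated replicate 1 or 3.

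Membrane transporters were called lower more often than higher. Of 134 measured transporters of small solutes 14 were called lower and 7 higher. *haf-4*, an ABC transporter of gut granules, went from 3074, 3311 and 3616 to 670, 778 and 803, a log2 change of -2.15 ± 0.16 (adjusted p = 4.5e-06). *haf-9*, its partner in the same granules and named after its values were seen, went from 2301, 2312 and 2520 to 600, 761 and 781 (-1.74 ± 0.19, adjusted p = 8.1e-05). *mrp-2*, an ABC exporter, went from 1652, 1408 and 1749 to 483, 579 and 456 (-1.67 ± 0.17), and 4 *pgp* exporters besides *pgp-12* were among the 14. The sugar transporter *swt-6* fell by 3.03 ± 0.62 with treated values that ranged from 67.2 to 395. In the other direction *aqp-8*, an aquaporin of the excretory cell, rose from 333, 285 and 248 to 1347, 1135 and 1496, while *pgp-12*, which is used as a marker of that same cell, fell from 367, 229 and 409 to 87.5, 93.2 and 85.8. Bright aquaporins gave small differences, with *aqp-2* at -0.27 (interval -0.58 to 0.05) and *aqp-7* at 0.29 (interval -0.02 to 0.60).

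Intestinal marker genes gave 5.26% called in each direction, beside 7.1% higher and 2.9% lower over all genes. Of 19 measured markers 1 was called higher and 1 lower, 8 passed the adjusted p downward when the fold limit was not applied, and the median was -0.5022. The 8 became 5 without control replicate 2, 3 without treated replicate 1 and 4 without treated replicate 2. Their sums ran from 46355 to 46913 in the control arrays and from 34289 to 41748 in the treated ones. *elt-2*, the GATA factor that defines the tissue, rose from 236, 181 and 164 to 407, 447 and 523, a log2 change of 1.25 ± 0.20 (adjusted p = 0.0013). *asp-1*, a gut aspartyl protease of high signal, read 14416, 13781 and 13309 against 11378, 14278 and 17198 (interval -0.42 to 0.47). *mtl-2*, a metallothionein, was the lower call, but its controls spread from 388 to 2536 and its adjusted p of 0.019 rose above the threshold without control replicate 1 (0.0559), control replicate 2 (0.0572), treated replicate 2 (0.0581) or treated replicate 3 (0.063). Over the marker list, lower calls numbered 0 without control or treated replicate 2 and 2 without treated replicate 3, and 4 with median centring. The part of the marker shift in the fall of the detoxification genes was not tested.

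Among secreted and digestive proteins the falls were selective. *asp-14* and *asp-13*, aspartyl proteases, went from 1229, 1492 and 1257 to 166, 183 and 183 (-2.90 ± 0.32, adjusted p = 9e-05) and from 790, 689 and 539 to 167, 198 and 186 (-1.86 ± 0.23). *cpr-8*, a cathepsin B-like protease, went from 1060, 856 and 1136 to 424, 396 and 446. *cpr-3*, of the same family, did the opposite, from 347, 399 and 555 to 2674, 2736 and 2103 (2.55 ± 0.22), on a probe set of the kind that can bind related transcripts. *asp-6*, a further aspartyl protease, gave -0.14 (interval -0.52 to 0.23). Transthyretin-like proteins, small secreted proteins, counted 5 of 40 lower and 0 higher (3 at an unadjusted p under 0.05, 0 by the methods' t-test), and 1 higher without control replicate 1 or treated replicate 2. *ttr-44* went from 1087, 941 and 748 to 259, 247 and 276 and *ttr-21* from 2435, 1856 and 2117 to 936, 741 and 757, with *ttr-16* at 0.08 (interval -0.34 to 0.50).

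Genes tied to defence against bacteria went both ways. *irg-4*, an infection response gene with a CUB-like domain, was bright in the controls at 3147, 3184 and 2999 and read 322, 297 and 396 in the treated arrays, a log2 change of -3.21 ± 0.35 (adjusted p = 7.3e-05). *dod-24*, of the same domain family, went from 663, 704 and 532 to 147, 166 and 139 (-2.06 ± 0.28). These were the 2 members called lower of 22 measured immune effectors, also by the methods' t-test. None was called higher by limma or by the methods' t-test (3 had an unadjusted p under 0.05, and 1 was called without control replicate 1 or treated replicate 3). *nlp-29*, an epidermal antimicrobial peptide, spread from 493 to 1034 in controls and 385 to 622 in treated arrays. Of 236 lysozyme and C-type lectin genes 28 (11.9%) were called lower and 11 (4.66%) higher. The higher ones included *clec-60*, which went from 31.2, 21.4 and 32.1 to 1865, 1678 and 2192 (6.10 ± 0.20, adjusted p = 1.1e-08), and *clec-5*, which went from 217, 288 and 312 to 2044, 2178 and 2204. *clec-63*, at signals of 8741, 9250 and 8654 in controls, gave 0.34 (interval -0.10 to 0.78).

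Among called genes with a control mean of at least 200 the largest fall was that of *C06E4.3*, from 1613, 1450 and 2371 to 75, 58.9 and 57.5, a log2 change of -4.80 ± 0.21 (adjusted p = 1.4e-07). *C06E4.6*, which carries the same clone name, went from 359, 296 and 332 to 23.8, 40.3 and 26.7 (-3.48 ± 0.28). *dod-3* went from 1767, 1306 and 655 to 65.3, 73.6 and 51.1 and *scl-24*, a secreted SCP-type protein, from 217, 442 and 459 to 35.6, 10.9 and 41.4. *F55G11.2* and *C32H11.4* fell by 3.46 and 3.26. *pho-11*, an acid phosphatase, went from 1247, 1637 and 1699 to 155, 208 and 171 (-3.10 ± 0.51), and *stdh-2*, a steroid dehydrogenase-like enzyme, from 495, 382 and 530 to 63.2, 33.1 and 76. For each of these genes the lowest control value was above the highest treated value, and controls were bright enough that the offset moved the log2 change by less than 1.

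Fat metabolism genes had small counts of calls. Of fatty acid synthesis, desaturation and elongation genes 0.0% were called higher and 5.26% lower, and of beta-oxidation genes 8.7% and 4.35%. Over all genes the shares were 7.1% and 2.9%. *fat-5*, the palmitoyl-CoA desaturase, went from 460, 610 and 619 to 71.9, 83.8 and 81.2, a log2 change of -2.82 ± 0.24 (adjusted p = 1.1e-05). It was the only one of 19 measured genes of fatty acid synthesis, desaturation and elongation that was called. *elo-1*, an elongase, gave -0.18 (interval -0.52 to 0.17). *ech-7*, an enoyl-CoA hydratase-type enzyme, went from 336, 224 and 419 to 38.9, 37.6 and 40.6 (-3.02 ± 0.27). Among 23 genes of beta-oxidation it was the only call downward, and its 2 upward calls, *ech-9* and *acdh-6*, became 1 without control replicate 1 or 2 and 0 without any 1 of the treated arrays. At an unadjusted p under 0.05 there were 10 higher and 1 lower, the median was 0.3261 with 17 positive differences, and 3 passed the adjusted p upward (7 with quantile normalization). *kat-1*, a thiolase, gave 0.33 (interval 0.05 to 0.60).

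Central energy metabolism and cytosolic ribosomal protein genes had few calls. Over glycolysis, the citric acid cycle and oxidative phosphorylation 78 genes were measured and 2 were called, both higher: *asb-1* above and *ucr-2.3*, a subunit of the cytochrome bc1 complex (1.05 ± 0.17), which fell under 2-fold without control replicate 3 (log2 0.91). None was called lower by limma or the methods' t-test, and 6 had an unadjusted p under 0.05 with a lower signal. *cts-1*, citrate synthase, read 8032, 7945 and 7801 against 7022, 8073 and 9179 (interval -0.31 to 0.36). The beta subunit of ATP synthase, *atp-2*, gave -0.02 (interval -0.42 to 0.38). Of 77 cytosolic ribosomal protein genes 1 was called, *rpl-11.1* (1.02 ± 0.23), and that call was lost at the fold limit without control replicate 3 (log2 0.79), treated replicate 1 (0.98) or treated replicate 3 (0.92). *rpl-3*, chosen for its high control signal, gave an interval from -0.39 to 0.51. The ribosomal list had a median of -0.01028, but within batches 1, 2 and 3 it was -0.3905, -0.1422 and 0.463. None of 33 proteasome genes passed limma's adjusted p (3 had an unadjusted p under 0.05, all lower, and 6 passed downward with median centring), nor did any of 10 genes of tyrosine and tryptophan breakdown (3 higher and 1 lower at an unadjusted p under 0.05), and the methods' t-test called 0 in both lists.

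Some chaperonin and translation genes fell. The CCT chaperonin, which folds actin and tubulin, was taken as a list after its values were seen. All 8 measured subunits were lower, 6 passed the adjusted p, 2 were called, and the median was -0.7888. *cct-8* went from 532, 462 and 546 to 126, 178 and 130 (-1.84 ± 0.17, adjusted p = 2.7e-05) and *cct-3* from 304, 303 and 371 to 119.2, 121.6 and 82.4 (-1.61 ± 0.25). The eIF3 translation initiation complex, likewise taken after its values were seen, had all 10 subunits lower, 4 passing and 3 called, with a median of -0.5053. *eif-3.I* went from 376, 409 and 506 to 143, 135 and 130 (-1.65 ± 0.19) and *eif-3.E* from a mean of 365 to 162.5, while 3 of all 37 translation factors measured were called lower and the elongation factor *eef-2* gave 0.03 (interval -0.35 to 0.41). *hsp-1* and *hsp-90*, general chaperones, gave -0.28 (interval -0.61 to 0.06) and -0.26 (interval -0.64 to 0.12). *nucl-1*, a nucleolin-type protein of the nucleolus, went from 4149, 4074 and 5891 to 1926, 2105 and 2420 (-1.11 ± 0.19, adjusted p = 0.002). Without 1 array *eif-3.E* (treated replicate 3, -0.99) and *nucl-1* (control replicate 3, -0.94) came just under the fold limit.

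DNA replication genes had small negative differences. Of 28 measured 24 had a negative difference, 10 passed limma's adjusted p downward (6 without treated replicate 2, 16 with median centring) and 15 had an unadjusted p under 0.05 in that direction. None was called, by limma or by the methods' t-test, the median was -0.4278, and 1 was called lower without control replicate 1, treated replicate 3 or *mep-1(RNAi)* replicate 2 and 4 with median centring. *mcm-7*, of the replicative helicase, went from 1492, 1993 and 2135 to 959, 944 and 1033 (-0.92 ± 0.16, adjusted p = 0.0025). The paper retested *mcm-7* by qRT-PCR, found its expression not affected, and proposes a false positive signal on its arrays. *rnr-1*, the large subunit of ribonucleotide reductase, went from 1996, 1765 and 1864 to 1064, 1030 and 1293 (-0.74 ± 0.14). Both sets of values were apart. Their sum over the list was 18558 to 20221 in controls and 13087 to 14091 in treated arrays. Of 35 genes of the mitotic cell cycle 6 passed downward (2 without control replicate 2, 3 without treated replicate 3), with *cyb-3*, a cyclin B, at -0.76 ± 0.16 (adjusted p = 0.0063).

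Part of the cuticle collagens were called higher. Of 128 measured *col* collagens 29 (22.7%) were called higher and 0 lower (3 at an unadjusted p under 0.05, 0 by the methods' t-test), with a median of 0.6612. *col-39* went from 935, 1052 and 1230 to 4980, 5427 and 6323 (2.38 ± 0.15, adjusted p = 1.5e-06), *col-91* from 166, 117 and 95.9 to 1461, 1381 and 1916 (3.67 ± 0.20) and *col-77* from 264, 190 and 167 to 1674, 1371 and 1836 (2.99 ± 0.21). Of the collagens not called, *col-125*, chosen for its high control signal, gave 0.21 (interval -0.24 to 0.66). Differences were wider in batch 3 generally, which held the largest of the 3 within-batch differences for 1069 of all 2096 called probe sets. The median of the *col* list was 0.3990, 0.6401 and 0.8623 in batches 1, 2 and 3. For 19 collagens named for body shape it was -0.1179, 0.3138 and 1.175, and 1 was called, *bli-2*, a call lost without control replicate 1 or 3, any 1 treated array or *mep-1(RNAi)* replicate 2. Moulting and apical matrix genes gave 0.1169, 0.1124 and 0.7598, with 3 of 24 called higher. *mlt-7*, a peroxidase that crosslinks cuticle, was the firmest of those, from 442, 585 and 635 to 1208, 1357 and 1269 (1.22 ± 0.15, adjusted p = 0.00019). *bli-5*, a protease inhibitor-like gene, read 38.2, 12.5 and 3.86 in controls, lowest in batch 3, and 133, 92.1 and 125 in treated arrays. *noah-1*, of the larval apical matrix, gave -0.03 (interval -0.47 to 0.40). The 16 hypodermal markers had 0 calls by limma or the methods' t-test (2 higher and 1 lower at an unadjusted p under 0.05, and 1 called higher without treated replicate 2), with sums of 13633 to 17166 in controls and 14750 to 16104 in treated arrays.

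**Figure D5:**
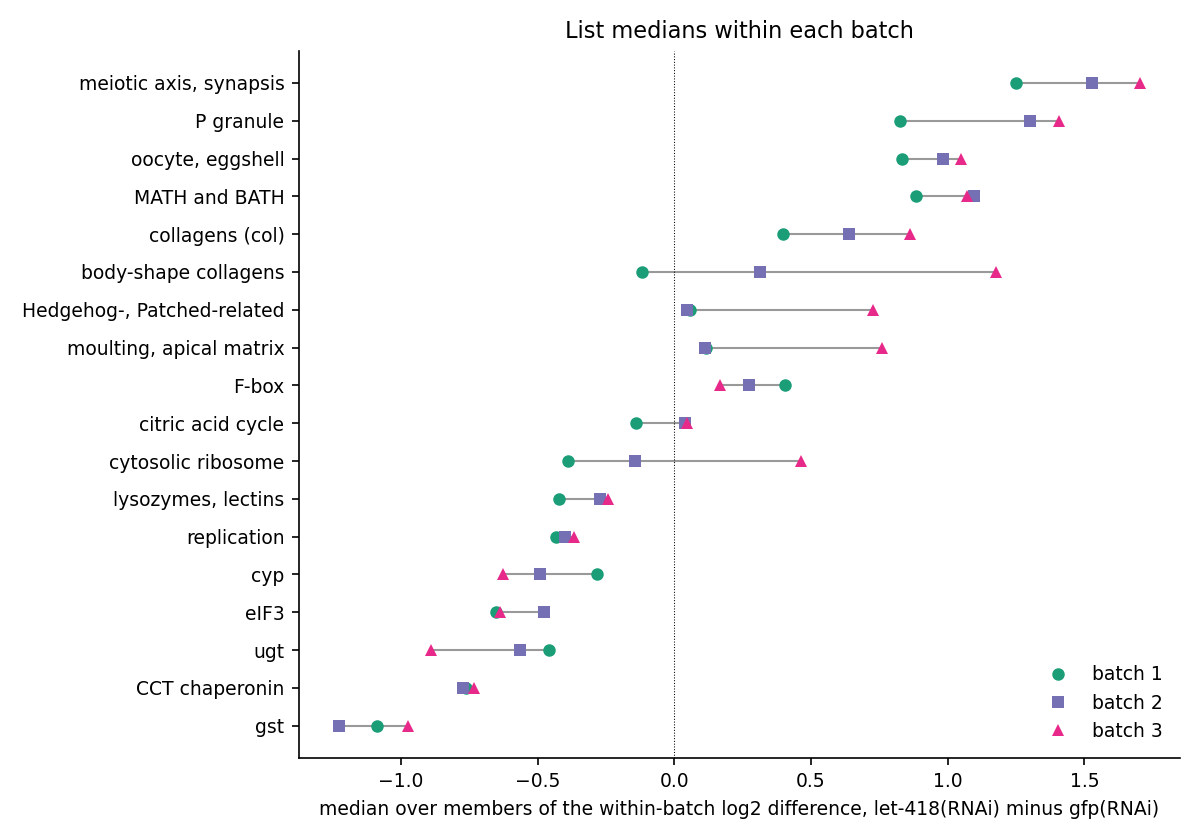
Median over list members of the log2 difference within each batch (arrays labelled *let-418(RNAi)* minus *gfp(RNAi)*), with a line from the lowest to the highest of the 3 batches. The lists of P granule, meiotic axis and oocyte genes and the glutathione transferases keep their side of 0 in every batch, while body-shape collagens run from -0.1179 in batch 1 to 1.175 in batch 3 and cytosolic ribosomal genes from -0.3905 to 0.4630.

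Hedgehog-related and Patched-related genes, which in worms act mainly in the epidermis and in moulting, had 13 of 81 called higher and 3 lower. The 13 became 8 without the intensity trend or with the compared arrays alone, and 8, 7 and 6 without control replicate 3, treated replicate 1 and treated replicate 3, and the 3 became 1 without control replicate 1, control replicate 3 or treated replicate 3. *ptr-22* went from 193, 193 and 197 to 556, 604 and 584 (1.58 ± 0.19, adjusted p = 0.00019) and *ptr-3* from 101, 109 and 135 to 208, 330 and 270 (1.21 ± 0.21), while the bright hedgehog-like gene *wrt-10* gave -0.16 (interval -0.51 to 0.19). Chitinase-like genes had 5 of 31 higher, 2 without treated replicate 1 and 3 without control replicate 2 or 3 or treated replicate 2 or 3, and 2 with the offset or without scaling. *chil-18* went from 4.27, 1.61 and 2.6 to 188, 153 and 187.

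The mid-size rises with the highest signal were led by single genes of mixed function. *lgmn-1*, a legumain-type protease, went from 1842, 1114 and 858 to 4803, 3629 and 3937 (1.76 ± 0.24, adjusted p = 0.00035). *Y47D7A.13* went from 4409, 3664 and 2349 to 8918, 10316 and 10324 (1.55 ± 0.26) and *Y53F4B.45* from 2071, 1820 and 1653 to 4409, 4909 and 4276 (1.30 ± 0.14). The groups did not overlap. The collagen *col-12* went from 4895, 4461 and 4054 to 8242, 9914 and 11631 (1.14 ± 0.17) and *ram-2* from 6991, 7156 and 6166 to 11282, 12892 and 17317 (1.01 ± 0.21), both on probe sets of the kind that can bind related transcripts. *epic-1* went from 2975, 3429 and 4239 to 6567, 7418 and 9294, *dod-19* from 1676, 1876 and 1925 to 3575, 3974 and 3707 and *F45D3.4* from 1649, 1936 and 1898 to 4205, 4145 and 3007. These 3 and *ram-2* lay close to 2-fold and kept the adjusted p, but came under the fold limit without some single arrays. The log2 change of *epic-1* was 0.99 without treated replicate 3, and that of *ram-2* 0.94 and 0.84 without control and treated replicate 3. *dod-19* came to 0.98 without control replicate 1 and just under 1 without treated replicate 2, and *F45D3.4* to 0.96, 0.95 and 0.96 without control replicate 1, treated replicate 1 and treated replicate 2. Of 166 genes named by rule and called, 30 lost the call without some 1 array, 16 of them by the fold limit alone. The long noncoding RNA *tts-1* (1.11 ± 0.29, adjusted p = 0.023) lost its call without control replicate 2 (adjusted p = 0.0539), control replicate 3 (0.0825), treated replicate 1 (0.0871) or treated replicate 3 (0.0562). *T19B10.2* (1.02 ± 0.28, adjusted p = 0.027) lost it without control replicate 3 (0.063), treated replicate 2 (0.0754) or treated replicate 3 (0.0938).

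Mid-size falls with the highest signals included several detoxification genes. Besides *gst-5*, *gst-7*, *ugt-62* and *nucl-1*, there was *cyp-13A6*, from 2817, 3317 and 4463 to 1076, 926 and 787 (-1.91 ± 0.29, adjusted p = 0.0008). *cdr-4*, of a family first known from cadmium exposure, went from 4233, 3701 and 3986 to 1703, 1949 and 1983 (-1.08 ± 0.15). *hrg-11.2* went from 3916, 4617 and 4482 to 1978, 2052 and 1704 (-1.18 ± 0.20). *K12H4.7*, *ctsa-1.2* and *Y54F10AM.8* went from means of 4978, 3868 and 3945 to 1922, 1768 and 1338. All 10 kept the adjusted p whichever array was left out.

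Of 21 measured regulators of dauer entry, insulin signalling and developmental timing 3 (14.3%) were called higher and 1 (4.76%) lower. *lin-28*, the RNA-binding protein that holds larvae in early stages of development, went from 755, 699 and 647 to 281, 136 and 131 (-2.03 ± 0.33, adjusted p = 0.0013). *lin-29*, a zinc-finger factor that acts late in the same heterochronic pathway, went from 52.9, 65.9 and 56.3 to 141, 219 and 106 (1.35 ± 0.28, adjusted p = 0.0066). *aak-1*, a catalytic subunit of AMP-activated kinase, rose by 1.43 ± 0.21 and *daf-9*, a cytochrome P450 that makes dafachronic acid, by 1.66 ± 0.28. The 3 treated values were outside the range of the controls for all 4 genes. *akt-1* gave -0.47 (interval -0.80 to -0.14). Of 254 nuclear hormone receptors 4 (1.57%) were called higher, or 7 without treated replicate 1, and 11 (4.33%) lower, or 20 with median centring, with *nhr-61* from 116, 160 and 136 to 664, 642 and 682 and *nhr-142* from 582, 629 and 555 to 211, 247 and 225. None of 65 homeobox genes was called in either direction by limma or by the methods' t-test after adjustment. At an unadjusted p under 0.05 there were 11 higher and 5 lower, and without single arrays up to 2 were called higher and 1 lower (control replicates 1 and 3, treated replicate 2, *mep-1(RNAi)* replicate 1).

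Neural and muscle genes had small counts of calls, beside 7.1% higher and 2.9% lower over all genes. The share called lower was 6.67% for neuronal and 5.0% for body wall muscle markers. Of 30 neuronal markers 2 were called lower, *eat-4*, a vesicular glutamate transporter (-1.12 ± 0.21), and *tdc-1*, tyrosine decarboxylase (-1.03 ± 0.19), and 0 without control or treated replicate 3. Without the fold limit 7 passed downward, 23 had a negative difference and the median was -0.301. Their sums were 25358 to 30359 in controls and 23660 to 25397 in treated arrays. *egl-3*, a neuropeptide processing enzyme, gave 0.00 (interval -0.40 to 0.40). Neuropeptide genes of the *flp* and *nlp* families had 3 of 83 (3.61%) called higher. In body wall muscle 1 of 20 markers was called, *unc-22* (twitchin), from 1110, 1532 and 1581 to 621, 592 and 406 (-1.39 ± 0.19), with 8 of the list lower at an unadjusted p under 0.05, 15 negative differences and a median of -0.2557, where *mlc-2*, a myosin light chain, gave 0.01 (interval -0.38 to 0.40). The 16 pharyngeal markers had 0 called by limma or the methods' t-test (2 higher and 5 lower at an unadjusted p under 0.05, and 1 called lower without control replicate 1 or treated replicate 2). Chemoreceptors, whose median control signal was 14.66, had 9 of 1266 called higher and 20 lower. Those counts rest on few arrays, with 5, 4 and 4 higher without control replicate 1, treated replicate 1 and treated replicate 3, and 8 and 9 lower without control replicates 2 and 3. They depended on the scale too, with 39 lower for median centring, 9 without scaling, 12 without the dimmest probe sets and 3 for the offset, and 4 higher without scaling and 2 for the offset.

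Called genes lay next to each other more often than all placed genes did, a description without a test. For 17074 genes with a place in the RefSeq annotation of assembly WBcel235, the next measured gene along the chromosome was also called higher in 19.4% of the 1214 cases in which the first was, against 7.11% of all placed genes. For falls the figures were 9.27% of 496 and 2.91%. Runs of 3 or more numbered 44 for rises and 8 for falls. The longest held 10 rising genes around the *pals* family (*C17H1.2* to *pals-15*), with log2 changes of 0.81 to 6.24 with the offset, and the next 8 genes of the *T20D4* clone, with 0.709 to 3.482 on the same scale. The longest falling run was *cyp-13A5*, *cyp-13A6*, *cyp-13A7* and *cyp-13A8*, with -2.973 to -1.887. Several runs held genes of 1 family by name (*fbxa-164*, *fbxa-165*, *fbxa-166* and *fbxa-158*, or *math-16*, *math-17*, *math-5* and *math-6*), and near-identical copies can share probe binding. Others mixed names, as that of *far-6*, *pqn-74*, *rec-8* and *mex-5*, with 1.193 to 2.755. These runs were picked out after their values were seen.

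The direct contrast with the 3 arrays labelled *mep-1(RNAi)* gave few calls between the treatments. In the same fit 1 of 22548 probe sets (0.00443%) was called between them, that of *tag-293*, and 1264 had an unadjusted p under 0.05. With batch as a block the count was 0, without any 1 of the arrays labelled *let-418(RNAi)* it was also 0, and it was 2 without control replicate 3 and 14 without *mep-1(RNAi)* replicate 3. *glh-1* differed by -0.32, *gst-5* by 0.31 and *irg-4* by -0.44 on the log2 scale between those treatments (adjusted p = 0.88, 0.89 and 0.94), which does not show that the treatments act alike.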

How the data were processed

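The 9 arrays (3 each of *let-418(RNAi)*, *gfp(RNAi)* and *mep-1(RNAi)*) held RNA of whole L1 larvae on the *C. elegans* gene expression array. The deposited values are linear intensities, 1 for each probe set, which the authors summarized from the probe cells with MAS5 and, by their methods, scaled to a common trimmed mean. The trimmed means in the deposited table differed between arrays, so each array was multiplied to an equal 2% trimmed mean (324) before log2. All 9 columns matched a sample. MAS5 subtracts the mismatch signal, which spreads dim values widely, and with 3 arrays a group the precision is low.

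Group means over all 9 arrays were fitted with limma 3.58.1 (lmFit, and eBayes with an intensity trend) in R 4.3.3, and p-values were adjusted by Benjamini-Hochberg over 22548 probe sets. The error given with a log2 change is the standard error of the fit, and intervals are 95% intervals of the same fit. Tables and figures were made with Python 3.11.15, numpy 2.4.6, pandas 2.3.3, scipy 1.17.1 and matplotlib 3.10.9. The fit was also run on simulated data whose means and spread came from these arrays, and no result here rests on that run. The label batch pairs the arrays, as it marks arrays of 1 batch. Residuals of same-batch treated and control arrays correlated at 0.02, 0.04 and -0.004, against -0.04 to 0.02 for the other 6 pairs. The main design has no block, as the methods name none.

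Probe sets were named from the platform annotation, which can be old: 20766 named 1 gene, 887 several and 895 none, and 20701 of the first kind matched RefSeq. Counts by chromosome were planned and not made, and no sequence is shown. The file names no genome build, and the places of neighbouring genes came from RefSeq. The genes compared and the lists were chosen with earlier results of these data known. Of the gene lists 7 were added, and the pattern for chemoreceptors was corrected, after values were seen. Named genes were the MEC and NuRD subunits, the 15 largest rises and falls with a signal of at least 200, the 10 brightest mid-size changes each way (all with 1 sign in the 3 batches), and up to 4 called and 2 uncalled members of each list. The uncalled ones were those with the highest control signals. Other settings tried were quantile normalization, median centring, no scaling, an offset, leaving out dim probe sets, a variance without intensity trend, a fit of the 6 compared arrays alone, batch as a block, no fold limit, the methods' t-test, and leaving out each array.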

Additional observations from a re-analysis of the deposited data

Results flagged for a closer look

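The signal of *tag-293* was the 1 probe set in which the 2 knockdown groups differed by a direct test. It read 68.6 ± 17.6 (SD, n = 3) in the *gfp(RNAi)* arrays, 214 ± 48.5 in those labelled *let-418(RNAi)* and 15.0 ± 7.52 in those labelled *mep-1(RNAi)*. The difference of the knockdown groups was 3.95 on the log2 scale (limma, adjusted p = 0.0115), and the adjusted p became 0.138 when batch entered as a block. Against *gfp(RNAi)* the change was 1.65 in the *let-418(RNAi)* arrays (adjusted p = 0.0136). The gene was named after its values were seen.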

How the results depend on the processing

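The counts of 1475 rises, 621 falls and their classes stayed within 1.5 times except as follows, and the causes were not tested. Median centring gave 988 falls, 747 of them of 2- to 4-fold, and 76 neighbouring pairs of falls. Without scaling there were 457 rises and 247 falls of 2- to 4-fold and 30 pairs of falls. The offset left 38 rises and 1 fall above 16-fold, and leaving out the dimmest 25% of probe sets 5 such falls. With no fold limit 1296 probe sets were lower, and the methods' t-test after adjustment, which uses the compared arrays alone, called 851 higher and 351 lower. Without 1 array at a time the rises numbered 1268 to 1554, the falls 500 to 633, the 2- to 4-fold rises 684 to 852 and falls 347 to 443, those above 16-fold 127 to 144 and 7 to 12, and the neighbouring pairs 193 to 249 and 37 to 51. With batch as a block the counts were 1486 and 626. The count between the 2 knockdowns was 1, or 0 without the intensity trend, 3 with the offset, 0 with batch as a block, and 0 to 14 without 1 array.

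Of 284 named genes 185 passed the adjusted p. None changed direction, 44 lost that side of the threshold under at least 1 of 15 alternatives (35 without scaling, 4 with the block) and 16 gained it. Of 930 list medians recomputed, 110 moved by more than their spread over batches, 39 of them under median centring. Small list counts also moved. Median centring gave lower calls for 7 F-box genes (4 otherwise), 3 *dhs* genes (1), 1 homeobox gene (0) and 1 pharyngeal marker (0), and 0 higher ribosomal genes (1). Without the intensity trend beta-oxidation had 0 higher (2).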

Other observations

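Some families were taken as lists after their values were seen, and most of them had members called in 1 direction. Of 58 glutamine-rich *abu* and *pqn* genes 13 were called higher and 0 lower, of 33 astacin metalloproteases (*nas*) 7 and 0, of 27 SET domain genes 7 and 0, and of 26 arrestin domain genes 6 and 0. Carboxylesterases (*cest*) had 3 of 32 higher and 6 lower. Over all genes 7.1% were called higher and 2.9% lower, so 0 lower in families of this size is near that share. All genes together had a median log2 change of -0.0285. The medians on the log2 scale were 0.1874, 0.6319, 0.1136, -0.01984 and -0.2281, and that of the SET domain genes became -0.06184 when arrays were centred on their medians, with 2 then called lower, and 4 were higher with the offset. Of 59 mitochondrial ribosomal genes limma called 0, while 49 had a negative difference, 5 passed the adjusted p downward (14 with median centring), 14 were lower and 2 higher at an unadjusted p under 0.05, and the methods' t-test called 0.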
